A study of Mus musculus with 2 samples.

Results

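The 10 genes described here encode the core of the inflammasome and of pyroptosis, and were measured in macrophages sorted from the aorta of dyslipidemic mice. They were taken by name from the deposited gene table as the rows of Nlrp3, Nlrc4, Aim2, Pycard, Casp1, Casp4, Gsdmd, Il1b, Il18 and Il1rn. All 10 were found among the 54532 genes of the table. Both groups were ApoE-/- mice, which lack functional apolipoprotein E, on a C57BL/6J background, and the labels give an age of 6 weeks for both. Mice of the Phlegm-Dampness Retention (PDR) group received 4 weeks of high-fat diet. Mice of the Spleen and Kidney Yang Deficiency (SKYD) group received propylthiouracil, a drug that lowers thyroid hormone, by gavage at 10 mg per kg per day for 4 weeks and high-fat diet for the next 2 weeks. The aortas were digested, cells were sorted on F4/80 and CD11b, and cells of 5 mice per group were pooled into a single RNA library. The comparison asks how macrophages differ between the syndromes, and syndrome, drug, diet time and age at sampling cannot be told apart in it.

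Inflammasomes are protein complexes that assemble in the cytosol when a sensor meets a microbial product or a sign of cell damage. The sensor recruits the adaptor ASC, which gathers and activates caspase-1, and the protease then matures the cytokines IL-1β and IL-18 and cleaves gasdermin D. The freed part of gasdermin D forms membrane pores, and the lytic death that can follow is called pyroptosis. In the artery wall, cholesterol crystals are known to trigger the NLRP3 inflammasome in macrophages. Assembly and cleavage act on the proteins, so the transcript levels given here measure the supply of components and not the activity of the complex.

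Each group had 1 library, so no difference has a replicate check and no p-value was computed. The deposited unit was FPKM, the fragments on a gene scaled to the length of the gene and to the size of the library. Whole numbers of reads were recovered from these values, and their sum over genes was 23086889 for PDR and 25427863 for SKYD. The library sizes implied by FPKM are 1.02 and 0.983 times these sums, so the values carry a scaling between the libraries. A difference is log2(FPKM + 1) in PDR with that in SKYD subtracted, so a positive value is higher in PDR. A gene was tested where its mean FPKM was at least 1, which 10399 genes met. Brackets hold exact Clopper-Pearson 95% intervals on the split of a gene's reads, which cover counting error and not the spread between mice.

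On the log2(FPKM + 1) scale no member differed by more than 2-fold, while the plain FPKM ratio of the low sensor Nlrc4 was 2.05. Casp1 and Gsdmd, the protease and the pore protein, were 1.87 and 1.85 times as high in PDR, and the DNA sensor Aim2 was 1.68 times as high. The adaptor Pycard, the lipopolysaccharide-binding protease Casp4 and the cytokine Il18 were higher in SKYD, by 1.28, 1.24 and 1.20 times. Of the 10 members, 7 were higher in PDR and 3 in SKYD. Of the 8 tested members, 5 were higher in PDR and 3 in SKYD, while 49.6% of all tested genes were higher in PDR. The 3 members turned to higher in PDR when differences were centred on the macrophage markers described further on. Over the whole tested table, 767 genes (7.38%) passed 2-fold in PDR, 719 (6.91%) did so in SKYD and 1486 (14.3%) either way. Among the 8 tested members, the counts were 0 and 0. Their median difference was 0.25, beside a median of -0.0035 over all tested genes with quartiles of -0.36 and 0.35. Nlrp3 and Nlrc4 had a mean FPKM under 1 and are given as values.

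Centring on the macrophage markers moved the median of all tested genes from -0.0035 to 0.64. It put 3 of the 8 tested members past 2-fold in PDR (Casp1, Gsdmd and Aim2), beside 24.4% of all tested genes, and 0 in SKYD, beside 3.16%. Nlrc4, which was not tested for its low level, came to 1.07. The median of the tested members became 0.89. The share of calls that were higher in PDR went from 51.6% to 88.5% over all tested genes with the same centring.

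**Figure D1:**
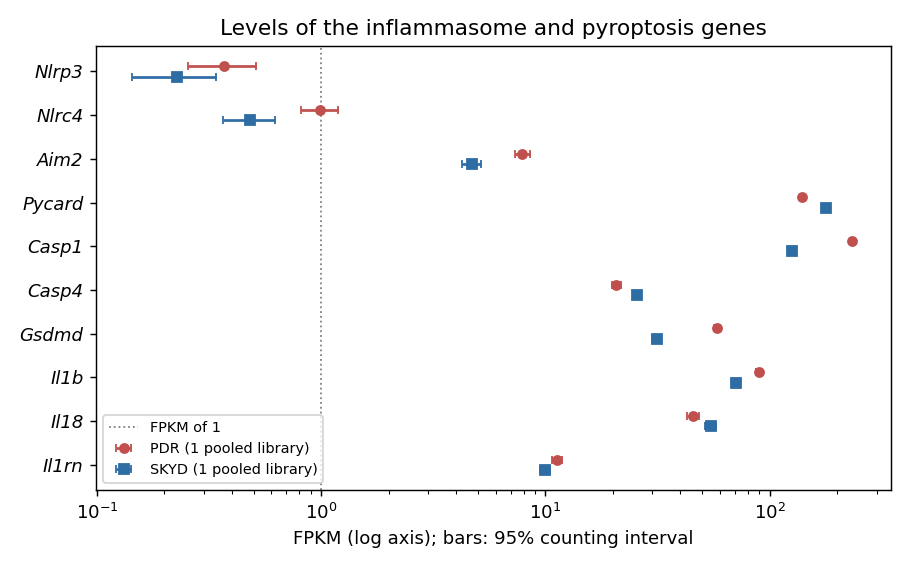
FPKM of the 10 members on a log axis for PDR (circles) and SKYD (squares), 1 library each, with 95% counting intervals as bars and a dotted line at an FPKM of 1. Casp1 reached 233 FPKM in PDR and Pycard 178 in SKYD, while Nlrp3 and Nlrc4 lay below 1 in both libraries.

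The members spanned a wide range of levels. In FPKM, the fold from the lowest member to the highest was 635 in PDR and 785 in SKYD. In PDR the order from the top was Casp1, Pycard, Il1b, Gsdmd, Il18, Casp4, Il1rn, Aim2, Nlrc4 and Nlrp3. In SKYD, Pycard stood above Casp1 and Il18 above Gsdmd, and the remaining places were as in PDR. Within each library the counting intervals of neighbours in this order did not overlap. The order depends on the gene length used. With the length of the longest coding transcript, described further on, Casp4 moved to place 5 in PDR and place 4 in SKYD. Together the members took 33004 reads in PDR, 0.143% of the library, and 32486 reads in SKYD, 0.128%.

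Among the sensors, Aim2 was the most abundant. Aim2 (ENSMUSG00000037860), which binds double-stranded DNA in the cytosol, had 648 reads and an FPKM of 7.88 in PDR, and 410 reads and 4.69 in SKYD. Its difference was 0.64 (0.49 to 0.80), larger in size than that of 73.4% of tested genes. Nlrc4 (ENSMUSG00000039193) joins NAIP proteins that have bound bacterial flagellin or secretion needles. It had 110 reads in PDR and 57 in SKYD, FPKM values of 0.990 and 0.482. The FPKM ratio was 2.05 (1.48 to 2.88), while on the log2(FPKM + 1) scale, which shrinks differences of low genes, the difference was 0.43 (0.24 to 0.60). A processed pseudogene, CT033749.1, lies inside Nlrc4 on the same strand and had 50 and 36 reads, so the count of Nlrc4 is uncertain to that extent.

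Nlrp3 (ENSMUSG00000032691), the sensor that responds to crystals and to loss of potassium, was the least abundant member in both libraries. It had 35 reads in PDR and 23 in SKYD, or 0.367 and 0.227 FPKM. Its difference of 0.16 had an interval from -0.02 to 0.32, the only interval among the 10 members that held 0. A difference in Nlrp3 was therefore not detectable at this depth.

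The adaptor was among the most abundant members and was higher in SKYD. Pycard (ENSMUSG00000030793), the gene of ASC, had 12368 reads in PDR and 16906 in SKYD. The FPKM values were 139 and 178, and the difference was -0.36 (-0.39 to -0.33). Relative to all tested genes, 24.8% had a lower value. Centred on the macrophage markers, the difference of Pycard was 0.28.

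The inflammatory caspases, which lie side by side on chromosome 9 and are read from the same strand, went in opposite directions. Casp1 (ENSMUSG00000025888, chr9:5298517-5307265 of GRCm38, plus strand) had 8205 reads in PDR and 4678 in SKYD. In FPKM these were 233 and 125, a difference of 0.89 (0.84 to 0.95), the largest of the tested members on this scale, and larger in size than 83.2% of tested genes. Casp4 (ENSMUSG00000033538, chr9:5308828-5336783, plus strand), the mouse protease that is activated by lipopolysaccharide inside the cell, had 1803 reads in PDR and 2384 in SKYD. Its FPKM was 20.7 in PDR and 25.7 in SKYD, with a difference of -0.30 (-0.39 to -0.22), which became 0.34 when centred on the macrophage markers. Per length, Casp1 exceeded Casp4 by 11.3 times in PDR (10.7 to 11.9) and by 4.86 times in SKYD (4.63 to 5.11). With the length of the longest coding transcript in place of all exons, these ratios were 4.36 and 1.88. Pycard per Casp1 was 0.594 in PDR and 1.42 in SKYD, so the more abundant of the adaptor and the protease differed between the libraries.

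Gsdmd (ENSMUSG00000022575), the substrate of both caspases, had a difference close to that of Casp1. There were 3245 reads in PDR and 1863 in SKYD. The FPKM values were 58.1 and 31.4, a difference of 0.87 (0.79 to 0.95) that overlapped the interval of Casp1. Per length, Gsdmd stood at 0.666 of the F4/80 gene Adgre1 in PDR (0.638 to 0.694) and at 0.336 in SKYD (0.319 to 0.354). Casp1 was 2.67 times Adgre1 in PDR and 1.34 times in SKYD.

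**Figure D2:**
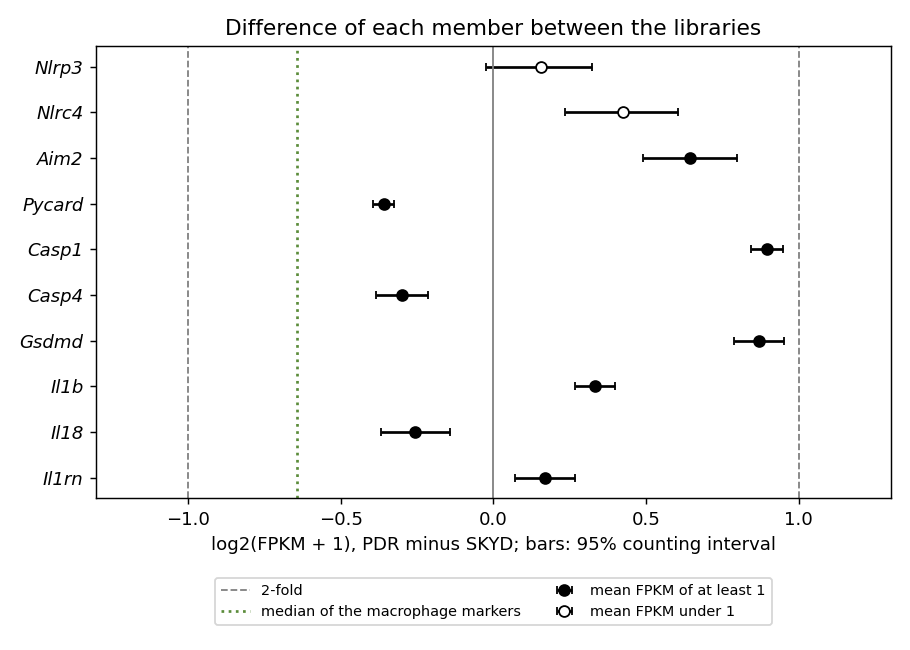
Difference of each member in log2(FPKM + 1), PDR minus SKYD, with 95% counting intervals as bars. Dashed lines mark 2-fold either way and the dotted line the median of the macrophage markers at -0.64. All 10 points lie between the dashed lines, and Pycard, Casp4 and Il18 are below 0 but above the dotted line, so that centring on it reverses their direction.

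The cytokine substrates of caspase-1 differed in opposite directions. Il1b (ENSMUSG00000027398), which is transcribed by monocytes, macrophages and neutrophils once they are primed, had 4021 reads in PDR and 3387 in SKYD. Its FPKM was 89.8 in PDR and 71.1 in SKYD, and the difference was 0.33 (0.27 to 0.40). Il18 (ENSMUSG00000039217), whose precursor is stored in many resting cells, had 1101 reads in PDR and 1403 in SKYD. The FPKM values of 45.5 and 54.4 gave a difference of -0.25 (-0.37 to -0.14), or 0.39 after centring on the macrophage markers. The ratio of Il1b to Il18 per length was 1.97 in PDR (1.85 to 2.11) and 1.31 in SKYD (1.23 to 1.39).

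Il1rn (ENSMUSG00000026981) encodes the receptor antagonist that blocks IL-1 at its receptor, and had 1468 reads in PDR and 1375 in SKYD. The FPKM was 11.3 and 9.94, with a difference of 0.17 (0.07 to 0.27). Il1b exceeded its antagonist by 7.95 times in PDR (7.49 to 8.45) and 7.15 times in SKYD (6.71 to 7.62), and these intervals overlapped. With the length of the longest coding transcript, the ratios were 4.997 and 4.494. Il1b per S100a9, an abundant neutrophil transcript, was 0.0406 in PDR and 0.0424 in SKYD with overlapping intervals. This ratio holds for S100a9 alone, which differed by 0.40. The differences of the 10 neutrophil markers ran from -0.32 for Retnlg to 2.36 for Elane, with a median of 0.62. Il18 per Adgre1 was 0.521 in PDR and 0.584 in SKYD, and these intervals also overlapped. The intervals did not overlap for Il1b per Adgre1, at 1.03 (0.989 to 1.07) in PDR and 0.762 (0.731 to 0.793) in SKYD, or for Pycard per Adgre1, at 1.59 (1.54 to 1.64) and 1.91 (1.86 to 1.96).

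The protein-coding genes nearest to Casp1 in the plane of both libraries were Tpi1, a glycolytic enzyme, Psmb10, a subunit of the immunoproteasome, and Apoc1, an apolipoprotein. Their distances were 0.073, 0.15 and 0.17 in log2(FPKM + 1), over 2 libraries. Tpi1 had 243 FPKM in PDR and 121 in SKYD, beside 233 and 125 for Casp1.

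Other genes of the pathway were taken as 70 genes in 8 lists, of which 55 were tested. Of these 55, 14 (25.5%) passed 2-fold in PDR and 5 (9.09%) in SKYD, beside 7.38% and 6.91% of all tested genes. The interferon-inducible list described below held 7 of the 14. The lists were chosen with earlier results of these data known, so these shares are not an independent check of the pathway. In direction, 38 of the 55 were higher in PDR and 17 in SKYD, with a median difference of 0.27. Of all tested genes, 49.6% were higher in PDR. With differences centred on the macrophage markers, 10 of the 17 turned to higher in PDR. The counts past 2-fold were then 26 of 55 in PDR and 2 in SKYD, the latter being Il1r2 and Cd14 and no longer Ninj1, Chmp4b and Nfkbia, beside 24.4% and 3.16% of all tested genes with that centring.

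**Figure D3:**
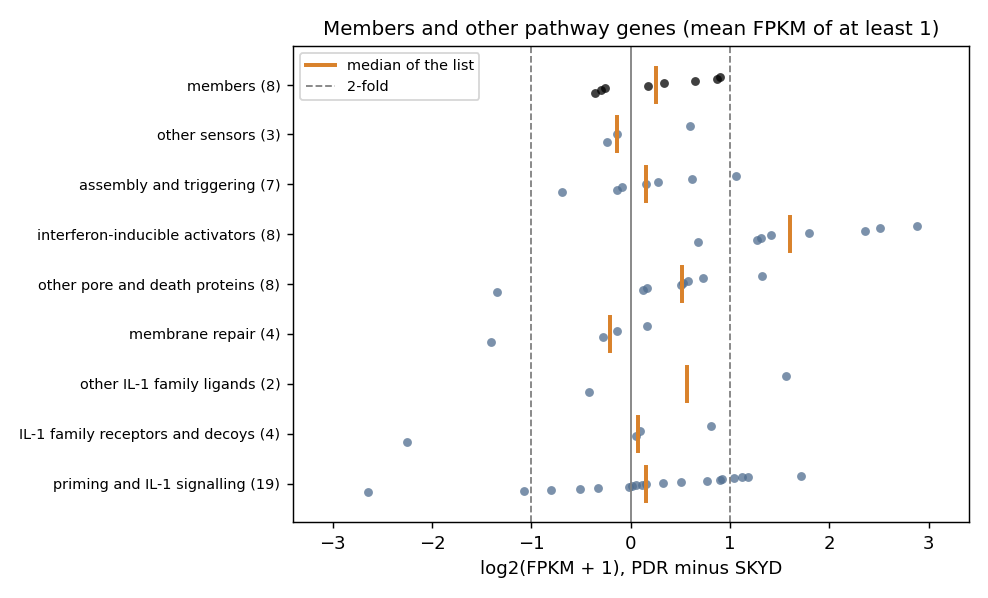
Differences in log2(FPKM + 1), PDR minus SKYD, of the members and of the other pathway genes in 8 lists, 1 point per tested gene and the number of genes in brackets. Orange bars are medians and dashed lines mark 2-fold. The interferon-inducible activators have a median of 1.60, while the 8 members lie between the dashed lines; with the macrophage-centred scale, 3 members and 10 other genes below 0 change direction.

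The list that stood highest held genes that interferon induces and that help open the way to inflammasome activation. All 8 tested genes of the 9 on it were higher in PDR, 7 of them by more than 2-fold, with a median of 1.60. The guanylate-binding protein gene Gbp2, whose family coats and breaks intracellular bacteria, had 130 FPKM in PDR and 16.8 in SKYD, a difference of 2.88 (2.79 to 2.97). Gbp3 had 87.8 and 16.4 FPKM, with a difference of 2.35. Gm12250, the gene of the GTPase IRGB10 that acts with them, had 99.4 and 16.7 FPKM and a difference of 2.51 (2.38 to 2.63). The table has it as a processed pseudogene of 1274 bases, a shorter model than the protein-coding gene in RefSeq, so its level is uncertain. Zbp1, a sensor of unusual nucleic acid that can start several forms of cell death, had 96.0 and 38.1 FPKM and a difference of 1.31. The transcription factor Irf1 had 56.6 and 15.6 FPKM, a difference of 1.79 (1.71 to 1.87). Irf8, a factor of the same family, differed by 1.27. Gbp7 had 5.82 and 3.26 FPKM, a difference of 0.68 (0.55 to 0.82), and Gbp5 had a mean FPKM under 1. Gbp7 shares 11.9% of its 64-base windows with other genes, Gbp3 among them, so its count is uncertain.

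Promoter sequence is shown for Casp1, the tested member with the largest difference in log2(FPKM + 1), for Il1b, the cytokine substrate with the most reads, and for Gbp7 and Irf1 as examples of the interferon-inducible list, chosen after their values were seen. Each is the 250 bases before the transcription start in the RefSeq annotation of GRCm38.p6, written in the direction of the gene, with searched motifs in capitals. The windows are chr9:5298267-5298516 on the plus strand for Casp1, chr2:129371140-129371389 on the minus strand for Il1b, chr3:142530086-142530335 on the plus strand for Gbp7 and chr11:53769764-53770013 on the plus strand for Irf1. None of the 4 windows overlaps an exon of GENCODE M21.
Casp1: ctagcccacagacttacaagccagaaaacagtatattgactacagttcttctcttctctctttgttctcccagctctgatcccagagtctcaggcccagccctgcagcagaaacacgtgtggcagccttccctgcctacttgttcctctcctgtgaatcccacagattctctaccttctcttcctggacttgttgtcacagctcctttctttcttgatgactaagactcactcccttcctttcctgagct
Il1b: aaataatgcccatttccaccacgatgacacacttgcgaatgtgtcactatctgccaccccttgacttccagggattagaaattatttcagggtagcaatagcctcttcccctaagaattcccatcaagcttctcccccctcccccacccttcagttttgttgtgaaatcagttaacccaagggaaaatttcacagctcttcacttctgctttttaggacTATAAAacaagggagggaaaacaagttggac
Gbp7: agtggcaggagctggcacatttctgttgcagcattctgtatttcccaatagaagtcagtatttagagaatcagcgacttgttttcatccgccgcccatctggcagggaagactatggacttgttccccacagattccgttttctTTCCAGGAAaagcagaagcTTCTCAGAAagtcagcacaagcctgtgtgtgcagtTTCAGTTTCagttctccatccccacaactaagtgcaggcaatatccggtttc
Irf1: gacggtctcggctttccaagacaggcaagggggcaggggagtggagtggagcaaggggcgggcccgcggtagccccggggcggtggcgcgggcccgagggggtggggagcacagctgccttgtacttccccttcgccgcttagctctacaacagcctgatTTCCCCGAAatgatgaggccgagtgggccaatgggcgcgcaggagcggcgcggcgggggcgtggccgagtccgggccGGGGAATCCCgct

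The motifs were searched on both strands, and matches that overlap were all kept. The interferon-stimulated response element (ISRE) was searched as GAAANNGAA and the gamma-activated site (GAS) as TTCNNNGAA. Of 32851 promoters of the same length, 7.13% held the first and 7.02% the second, and 13.4% held either. Of 10 starts of 7 interferon-inducible genes, 7 starts held either of them. Of 13 starts of 9 members, 0 held either. Gbp7 carries the ISRE letters on the minus strand and 2 GAS matches, and Irf1 carries a GAS match. Gsdmd is named only.

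The other motifs each occurred in 1 or 2 members. The NF-kB motif, present in 7.25% of all promoters, occurs before Casp4 and at a start of Nlrp3, and also before Gbp5 and Irf1. GAGGAAGT, the core bound by the myeloid factor PU.1, occurs before Aim2 and Pycard and in 2.44% of all promoters. TTGCNNAA of the C/EBP factors occurs before Nlrc4 and Pycard (9.56%), and TGANTCA of AP-1 before Il1rn (6.75%). TATAAA, in 12.4% of all promoters, occurs before Il1b from base -31 to base -26 and, on the other strand, before Il18. No searched motif occurs in the 250 bases of Casp1. These matches describe the letters of a window and not a site in use.

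Among the other sensors, 3 of 9 were tested, and none of them passed 2-fold. Mefv, the gene of pyrin, had 2.96 FPKM in PDR and 3.67 in SKYD. Naip2, whose protein pairs with NLRC4, had 3.99 and 2.30. The third was Naip5 with a difference of -0.14. Naip2 shares 13.8% and Naip5 28.4% of 64-base windows with other Naip genes, so reads could be split between them. Mefv and Naip5 changed direction with the macrophage centring.

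Of the genes that trigger or assist assembly, 7 of 8 were tested. Nek7, the kinase that NLRP3 needs for assembly, was 2.28 times as high in PDR, at 12.6 and 5.53 FPKM with a difference of 1.06 (0.97 to 1.15). Txnip, a thioredoxin-binding protein known to bind NLRP3, was 1.63 times as high in SKYD, at 41.4 FPKM in PDR and 67.5 in SKYD. Brcc3, which removes ubiquitin from NLRP3, had 13.9 and 11.3 FPKM. The median of this list was 0.15.

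Genes of other pores and death proteins were mostly higher in PDR, 7 of 8 tested, beside 49.6% of all tested genes, with a list median of 0.52. The exception was its most abundant gene. Ninj1, whose protein ruptures the plasma membrane at the end of lytic death, had 178 FPKM in PDR and 455 in SKYD, 2.56 times as high in SKYD with a difference of -1.35 (-1.39 to -1.31). Mlkl, the effector of necroptosis, was on the opposite side with 15.6 and 5.65 FPKM and a difference of 1.32 (1.16 to 1.48). Casp8, which can cleave gasdermin D and start apoptosis, had 62.9 and 43.4 FPKM.

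Membrane repair by ESCRT proteins removes gasdermin pores from the cell surface. All 4 genes of this list were tested, with 3 higher in SKYD and a median of -0.21, and Chmp3 and Vps4b turned to higher in PDR under the macrophage centring. Chmp4b, which forms the constricting filament, had 4.10 FPKM in PDR and 12.5 in SKYD, a difference of -1.40 (-1.60 to -1.21). Chmp3 had 42.1 and 51.4 FPKM, and Vps4a 22.0 and 19.5.

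Of the other IL-1 family ligands, 2 of 4 were tested. Il1f9, an IL-36 cytokine, had 9.15 FPKM in PDR and 2.43 in SKYD with a difference of 1.57 (1.32 to 1.81). Il1a, which signals through the same receptor as Il1b, had 2.93 and 4.28 FPKM. Its difference of -0.42 reversed under the macrophage centring. Il1f6 was at 0 reads in both libraries.

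Receptors and decoys set how far the cytokines act, and 4 of 8 were tested. Il1r2, the decoy receptor that binds IL-1 without signalling, had 1057 reads in PDR and 5528 in SKYD. In FPKM this was 23.6 and 116, or 4.91 times as high in SKYD, with a difference of -2.25 (-2.34 to -2.16). Il18bp, the secreted protein that neutralises IL-18, went the other way with 36.0 FPKM in PDR and 20.2 in SKYD. Il18 per Il18bp was thus 1.26 in PDR (1.18 to 1.36) and 2.69 in SKYD (2.50 to 2.90). The signalling receptor Il1r1 had 0 reads in PDR and 16 in SKYD.

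Priming and IL-1 signalling genes were all tested, 19 of 19, with 4 more than 2-fold higher in PDR and 2 in SKYD. Cd14, the co-receptor that hands lipopolysaccharide to TLR4, had 149 FPKM in PDR and 938 in SKYD, 6.30 times as high in SKYD with a difference of -2.65 (-2.69 to -2.61). Nfkbia, the inhibitor of NF-kB that is itself induced by it, had 230 and 485 FPKM and a difference of -1.07. On the other side, Tnf had 7.25 and 1.51 FPKM, a difference of 1.71 (1.44 to 1.98). Tlr2 differed by 1.12, and the NF-kB subunits Nfkb2 and Relb by 1.18 and 1.04. The median of the list was 0.16, and Myd88, Rela and Il6 changed direction with the macrophage centring.

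The labelled cell type was checked against its markers. All 11 macrophage markers were found, with 0 of them at 0 reads, and the most abundant, Lyz2, had 22217 FPKM in PDR and 41336 in SKYD. Their share of reads was 3.35% for PDR and 6.13% for SKYD. Of the 11, 9 were higher in SKYD, and C1qa, C1qb and C1qc were more than 2-fold higher there, with a median difference of -0.64. Csf1r and Fcgr1 were higher in PDR. The differences ran from -1.59 for C1qc to 0.54 for Fcgr1, and the median used for the centring is the value of Itgam. Of the sort genes, Adgre1 had 87.3 and 93.3 FPKM and a difference of -0.10, and Itgam 8.84 and 14.4 FPKM and a difference of -0.64. In pooled cells, fewer cells of a type and less RNA per cell cannot be told apart.

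**Figure D4:**
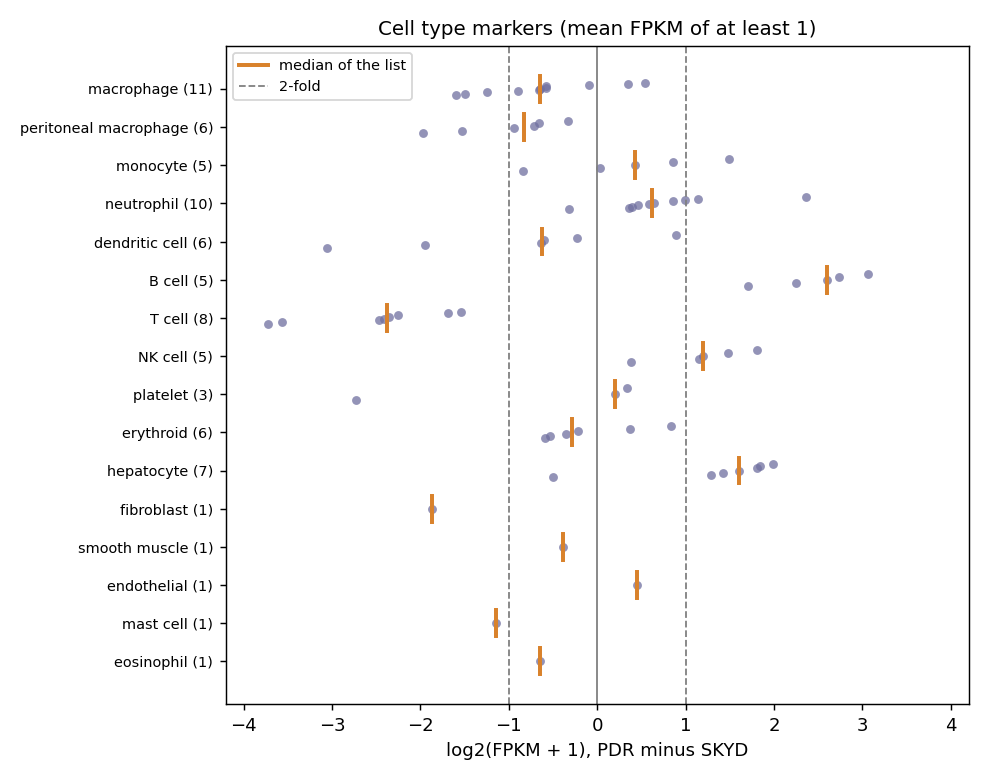
Differences in log2(FPKM + 1), PDR minus SKYD, of the markers of 16 cell types, 1 point per tested gene and the number of genes in brackets. Orange bars stand for medians and dashed lines for 2-fold. B cell, NK cell and hepatocyte markers lie to the right with medians of 2.60, 1.20 and 1.60, and T cell markers to the left with a median of -2.38.

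Markers of cells that also transcribe members moved with the groups. Monocyte markers took 1.14% of reads in PDR and 0.629% in SKYD, 4 of 5 had a positive difference (list median 0.43), and Chil3 led with 2264 and 1245 FPKM. Neutrophil markers took 0.321% and 0.228%, 9 of 10 had a positive difference (list median 0.62), and S100a9 led with 2209 and 1677 FPKM. Peritoneal macrophage markers were the reverse. They took 0.136% of reads in PDR and 0.317% in SKYD, all 6 tested genes were higher in SKYD with a median of -0.83, and Alox15 led with 236 and 683 FPKM. Dendritic cell markers took 0.0217% and 0.0401%, and 5 of 6 tested genes were higher in SKYD, with a list median of -0.62. Cd209a had 42.4 FPKM in PDR and 167 in SKYD, while Ccr7 was higher in PDR, at 56.7 and 30.1 FPKM. The part of these cell types in the differences of the members was not tested.

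The medians of the lymphocyte lists, 2.60 for B cells, -2.38 for T cells and 1.20 for NK cells, were larger in size than the difference of any member. B cell markers took 0.361% of the reads of PDR and 0.0674% in SKYD, all 5 tested genes passed 2-fold in PDR, and Cd79b had 802 and 168 FPKM. T cell markers took 0.0509% and 0.294%, all 8 passed 2-fold in SKYD, and Cd8b1 had 39.7 and 535 FPKM. NK cell markers, led by Gzma with 256 and 115 FPKM, took 0.0437% and 0.0175%, and 4 of 5 tested genes passed 2-fold in PDR. The part of lymphocytes in the interferon-inducible list and in Casp1 and Gsdmd was not tested.

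Erythroid markers took 1.71% of reads in PDR and 2.21% in SKYD with a median of -0.29, led by Hba-a1 at 10807 and 15651 FPKM. Hepatocyte markers took 0.210% and 0.0677%, 6 of 7 passed 2-fold in PDR, and Apoa2 had 793 and 294 FPKM. Platelet markers took 0.0197% and 0.105%, led by Pf4 at 218 and 1446 FPKM, with a median of 0.20 over 3 tested genes and Gp1bb at 0 in both. Pf4 alone held 26049 of the 26720 reads of this list in SKYD. The other tested platelet genes were higher in PDR, Ppbp at 23.0 and 19.8 FPKM and Gp9 at 4.98 and 3.72. The interval of Gp9 held 0. Fibroblast, smooth muscle, endothelial, mast cell and eosinophil lists had 1 tested gene each. These were Dcn with 10.03 and 39.4 FPKM, Acta2 with 1.55 and 2.34, Pecam1 with 3.89 and 2.57, Cpa3 with 5.75 and 14.0, and Prg2 with 14.5 and 23.3. The smooth muscle genes Myh11, Tagln and Cnn1, the mast cell genes Mcpt4 and Tpsb2 and the eosinophil gene Epx were at 0 reads in both libraries, where 0 reads allow up to 3. Apoe, the gene altered in these mice, had 17336 reads in PDR and 3618 in SKYD. A count over the whole gene does not show whether the altered part was read, so it does not check the genotype.

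Genes that overlap a member could share reads with it, since the sources used here do not say whether counting used the strand. Besides CT033749.1 in Nlrc4, all of them lie on the opposite strand. Il1bos overlaps Il1b and had 1 read in PDR and 20 in SKYD. Bco2 and Tex12 overlap Il18 with 136 and 20 reads in PDR and 183 and 3 in SKYD. Cadm3 overlaps Aim2 with 0 and 8 reads, and Gm45205 overlaps Pycard with 1 and 0. In sequence, 0.308% of the 64-base windows of Nlrc4 occur in another gene, and none of those of the other 9 members do.

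Levels between members depend on the length used. The table counts all exons of a gene, which for Casp4 is 3710 bases against 1435 in its longest coding transcript, and for Il1rn 5535 against 2474. With the longest coding transcript of GENCODE M21, an alternative chosen after seeing the data as were the ratios by that length, Casp4 came to 53.5 FPKM in PDR and 66.5 in SKYD. Il18 came to 53.0 and 63.4 and Gsdmd to 77.1 and 41.6, so that Casp4 stood beside Il18 in both libraries and above Gsdmd in SKYD. The places of the other 7 members did not change, though Il1rn came to 25.3 FPKM in PDR and 22.2 in SKYD. The FPKM ratio between the libraries does not depend on this choice, since a gene has the same length in both.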

How the data were processed

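Total RNA of aortic macrophages was sequenced, with cells of 5 mice pooled into 1 library a group. The authors deposited FPKM for 54532 genes, and the submitters' processing notes name TopHat2 2.0.9, Bowtie2 2.0.6, HTSeq 0.6.1, DESeq 3.18.1 and the build mm9. The gene positions in the table are those of GRCm38: 98.3% of the 54409 genes shared with GENCODE M21 have the same start and end.

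FPKM times gene length was divided by the step of 1 read, which gave whole reads, within 0.01, for 100% of values above 0. A gene was tested at a mean FPKM of 1 or more, on the scale log2(FPKM + 1), and differences past 2-fold were counted. Intervals are exact 95% Clopper-Pearson intervals and cover counting error only. A count of 0 allows up to 3 reads.

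Members and lists were chosen with earlier results of these data known. Named were all members, and of each pathway list the genes past 2-fold and the 2 most abundant. Also named were the most abundant marker of each cell type with Adgre1 and Itgam, the 3 genes nearest to Casp1, and genes that overlap a member. Further names were chosen after their values were seen. A gene of the pathway lists that this rule names is not reported here by itself. Promoters of 9 of the 10 members were matched by symbol in RefSeq. The steps were tested on simulated data. Alternatives were other pseudocounts, filters, thresholds, TPM, centring, protein-coding genes alone and transcript length. The tools were scipy 1.17.1, pandas 2.3.3, matplotlib 3.10.9 and numpy 2.4.6 under Python 3.11.15.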

Additional observations from a re-analysis of the deposited data

How the results depend on the processing

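Pseudocounts of 0.1 and 0.01, no filter on FPKM, TPM and centring on the median of all tested genes reversed no member and kept each count within 1.5 times. Nlrp3 and Nlrc4 moved with the pseudocount, to 0.67 and 1.02 at 0.01. Centred on the macrophage markers, Pycard, Casp4 and Il18 changed direction. The tested members past 2-fold in PDR were then 3 and their median 0.89, other pathway genes past 2-fold were 26 in PDR and 2 in SKYD, and all tested genes 2536 in PDR and 329 in SKYD. The whole scale moved by construction. With a mean FPKM of at least 5, 5760 genes were tested, and 464 were past 2-fold in PDR and 373 in SKYD. Among protein-coding genes 542 were past 2-fold in PDR and 473 in SKYD. At 1.5-fold, 3 of the 8 tested members, 22 of 55 other pathway genes and 1574 of all 10399 tested genes passed in PDR. In SKYD, 0 members, 7 other pathway genes and 1562 of all tested genes passed. At 4-fold, 3 other pathway genes passed in PDR and 2 in SKYD, with 194 and 216 of all tested genes.

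No paired analysis was possible because each group has 1 library. Nlrp3 rests on 35 and 23 reads and Nlrc4 on 110 and 57, so depth limits these sensors most. The intervals hold counting error alone, and the spread between mice was not measured.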
